A study of Homo sapiens with 94 samples.

Results

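K-975 was given once by mouth at 100 mg/kg to 2 cage groups of mice in the study sampled 3 to 6 h after the dose, and the RNA-seq libraries of their tumors were compared directly, gene by gene. The members are 10 tumors of the 94 in the series, 5 of cage group 7 (labelled 7_GPN-14351) and 5 of cage group 6 (labelled 6_GPN-14351), chosen by the compound, dose and cage labels alone and not by any measured value. The study followed gene expression after a single dose, and the labels give the window of 3 to 6 h but tie neither cage group to its start or its end. The tumors were NCI-H226, an established cell line of malignant pleural mesothelioma in which NF2 is deleted, grown under the skin of the right flank of SCID mice, which lack functional B and T lymphocytes. All 10 mice carried the same cell line and had the same dose in the same volume, 10 mL/kg, of a vehicle of ethanol, Solutol and injectable glucose at pH 3. The mice were female, of the CB17 strain, and 6 to 8 weeks old by the methods that cover the mice of the whole study. The 10 vehicle tumors of the same study (cage groups 2 and 3) and the 10 tumors at 200 mg/kg (cage groups 4 and 5) had 20 mL/kg, the 10 tumors at 30 mg/kg (cage groups 8 and 9) had 10 mL/kg, and 5 tumors (cage group 1) were untreated. The tumors of 1 cage group shared a cage label, and no label gives a tumor its time within the window. In the numbering of the libraries, cage groups 1, 2, 4, 6 and 8 come first, and cage groups 3, 5, 7 and 9 follow after a gap. What this order stands for is not stated. Time after the dose, cage and place in this numbering thus cannot be told apart in any difference between cage groups 7 and 6 given here.

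The Hippo pathway is a kinase cascade that keeps the co-activators YAP1 and WWTR1 (TAZ) out of the nucleus. NF2 feeds into this cascade, and cells without it tend to keep YAP1 active. YAP1 and WWTR1 do not bind DNA themselves but bind the TEAD transcription factors, which recognise short DNA motifs and switch on genes such as CCN1, CCN2, ANKRD1 and AMOTL2, several of which feed back on the pathway. K-975 attaches covalently to TEAD proteins in the pocket that normally takes up palmitate.

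The libraries carried the marks of the labelled cells. The mesothelial markers MSLN (mesothelin) and CALB2 (calretinin) were at 222 to 290 and 525 to 755 FPKM (fragments mapped to a gene, divided by its transcript length and by the library total) in cage group 7 and at 222 to 267 and 580 to 781 FPKM in cage group 6. For NF2, 9 of the 10 libraries held an FPKM of 0, and replicate 5 of cage group 7 held 0.169 FPKM. Between 11391 and 11620 genes were at an FPKM of at least 1 in a library of cage group 7 and between 11433 and 11538 in one of cage group 6. The deposited FPKM hold no read counts, so the absolute depth is unknown. A relative depth was read from the smallest values of 1464 rarely detected genes, since a single fragment is worth less in a deeper library. It was 0.818, 0.471, 0.778, 0.826 and 0.862 in replicates 1 to 5 of cage group 7 and 1.10, 1.29, 1.26, 1.42 and 0.872 in those of cage group 6. Every library of cage group 7 was thus shallower than every library of cage group 6, by a mean of 0.438 (exact permutation test, two-sided p = 0.00794, the smallest that 252 splits of 5 against 5 allow, 0.0317 after adjustment over 4 library measures). Its part in the gene differences was not tested, and for named genes whose fold change moved by over 1.5 times in a fit with relative depth as a covariate, that value stands beside them. Libraries correlated across genes at r = 0.940 to 0.965 within cage group 7, 0.962 to 0.978 within cage group 6 and 0.948 to 0.971 between them, so none was a duplicate of another.

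The stretches of DNA around the starts of 3 genes described below are shown first, as RefSeq gives them for GRCh38.p14, from 250 bases before to 50 after an annotated start. AMOTL2 and AJUBA are genes of the Hippo pathway that were lower in cage group 7, and FNIP1 was the gene with the smallest p. None of the 3 passed the threshold used below, an adjusted p of 0.05. Capitals mark the core of the TEAD motif (CATTCC or its reverse complement GGAATG) in AMOTL2 and AJUBA and the E-box CACGTG, the motif of MYC and of the MITF and TFE family, in FNIP1.
AMOTL2: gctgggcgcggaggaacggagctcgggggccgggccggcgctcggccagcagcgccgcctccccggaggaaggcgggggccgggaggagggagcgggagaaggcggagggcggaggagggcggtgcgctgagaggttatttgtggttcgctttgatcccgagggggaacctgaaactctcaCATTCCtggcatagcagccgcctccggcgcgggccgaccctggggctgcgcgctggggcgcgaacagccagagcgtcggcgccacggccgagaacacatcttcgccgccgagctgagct
AJUBA: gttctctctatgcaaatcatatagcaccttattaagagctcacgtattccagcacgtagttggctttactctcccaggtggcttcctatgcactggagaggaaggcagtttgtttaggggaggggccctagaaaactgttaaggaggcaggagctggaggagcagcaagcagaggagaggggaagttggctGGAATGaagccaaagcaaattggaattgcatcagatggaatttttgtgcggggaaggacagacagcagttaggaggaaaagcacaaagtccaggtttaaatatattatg
FNIP1: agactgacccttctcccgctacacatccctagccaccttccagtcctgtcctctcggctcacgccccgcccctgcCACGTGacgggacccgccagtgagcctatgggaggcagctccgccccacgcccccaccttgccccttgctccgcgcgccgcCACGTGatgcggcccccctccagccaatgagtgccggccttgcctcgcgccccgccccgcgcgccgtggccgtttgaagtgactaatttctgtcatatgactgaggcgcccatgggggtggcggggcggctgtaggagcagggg
The AMOTL2 window is chr3:134374398-134374697 on the minus strand, the second of 2 windows of the gene, with its motif at position -69 from the start site. The AJUBA window is chr14:22976793-22977092 on the minus strand, also the second of 2, with its motif at position -59. The first windows of AMOTL2 and AJUBA held no TEAD core. The FNIP1 window is chr5:131796968-131797267 on the minus strand and holds 2 E-boxes, the first at position -175. The window of FLCN, the partner of FNIP1 described with it, is chr17:17237119-17237418 on the minus strand and holds no CACGTG. On both strands, the TEAD core is in 14% of all 35116 windows of this length and the E-box in 7.26%. Among the 10035 tested genes with a window, 15.1% held a TEAD core, against 11.96% of the 393 that were lower in cage group 7 and 13.8% of the 333 that were higher at an unadjusted p under 0.05. For the E-box these shares were 12.4%, 12.5% and 13.8%. The AP-1 motif (TGAGTCA or TGACTCA) was in 4.91% of all tested genes with a window, 2.54% of the lower and 6.31% of the higher ones, and in 4.95% of all windows. The CArG box, the motif of SRF, was in 1.53%, 0.509% and 3.00%, and in 1.29% of all windows. The shares of higher genes with these motifs rest on 21 and 10 genes, and those of lower genes on 10 and 2. A match is a description of the letters only.

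Across all genes the cage groups were close. A gene was tested when 5 or more of the 45 libraries of the study had 1 FPKM or more of it, which left 12487 genes. Of these, 0 passed an adjusted p of 0.05 (limma, Benjamini-Hochberg), which is 0% of those tested, and the smallest adjusted p was 0.0635 (FNIP1). At an unadjusted p under 0.05 there were 911 genes, 7.3% of those tested, with 417 higher in cage group 7 (3.34%) and 494 lower (3.96%). The 5 tumors of cage group 7 were all above the 5 of cage group 6 for 68 genes (0.545%) and all below for 93 (0.745%). The median log2 fold change was -0.0025, and 95% of genes lay between -0.48 and 0.50.

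The other same-treatment pairs of the study had counts of a like size. Between vehicle cage groups 3 and 2, which had no compound, 6 genes passed (0.048%) and 1206 were at an unadjusted p under 0.05 (9.66%, with 4.92% higher and 4.74% lower in cage group 3), and 90 were higher (0.721%) and 94 lower (0.753%) without overlap. All 6 were higher in cage group 3, namely FNIP1, FBXO32, MAFF, PFKFB4, FNDC3B and HKDC1. Between cage groups 5 and 4 at 200 mg/kg 2 genes passed (0.016%) and 875 were at an unadjusted p under 0.05 (7.01%, with 3.75% higher and 3.26% lower), and between cage groups 9 and 8 at 30 mg/kg 0 passed and 772 were (6.18%, with 3.72% higher and 2.47% lower). No pair of cage groups is thus without such genes, whether or not the mice had K-975. Across the 12487 genes, the difference of cage group 7 from 6 correlated with the difference of the other pairs at Spearman's rho 0.071 (vehicle), 0.141 (200 mg/kg) and 0.015 (30 mg/kg). These pairs share no tumors, and genes are not independent replicates.

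Against vehicle, the cage groups were unlike in their counts. Cage group 7 had 134 genes past the threshold (1.07%), of which 55 were higher (0.44%) and 79 lower (0.633%) than in the 10 vehicle tumors. Cage group 6 had 0 (0%), with 611 at an unadjusted p under 0.05 (4.89%, against 13.3% in cage group 7). Both counts use the same vehicle tumors, and the direct comparison with its 0 genes is the test of the difference between the cage groups. Leaving out replicate 1, 3 or 4 of cage group 7 gave 74, 66 or 72 genes in place of 134, and with all 94 libraries of the series in the fit, 3 of which were shallow, the count was 0. The vehicle tumors had 20 mL/kg against 10 mL/kg, so volume cannot be told apart from K-975 in these contrasts. Nor can cage and sampling time, since each contrast sets 1 cage group against the mean of 2 vehicle cage groups. Those 2 vehicle cage groups themselves differed at 9.66% of genes at an unadjusted p under 0.05.

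CCN1 (CYR61), a secreted matrix protein and a direct target of YAP1 and TEAD, had the lowest fold change of the 22 genes of a YAP/TAZ-TEAD target signature. It lies at chr1:85580761-85583962. Its FPKM were 103, 110, 91.4, 89.4 and 95.8 in cage group 7 and 131, 114, 192, 143 and 135 in cage group 6, while the 10 vehicle tumors lay between 148 and 271 with a median of 204. All 5 tumors of cage group 7 were below all of cage group 6 and below all vehicle tumors, and 4 of 5 of cage group 6 were below all vehicle tumors. The log2 fold change between the cage groups was -0.52 ± 0.15 (SE, limma adjusted p = 0.365, unadjusted p = 0.00149). Against vehicle it was -1.04 ± 0.13 in cage group 7 (adjusted p = 1.5e-05) and -0.52 ± 0.13 in cage group 6 (adjusted p = 0.668), so CCN1 fell in cage group 7 and did not pass in cage group 6. With relative depth as a covariate the fold change between the cage groups was -0.73 (adjusted p = 0.212).

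AMOTL2, an angiomotin-like protein that binds YAP1 and is itself a target, had the same order. Its FPKM were 16.0, 14.1, 19.1, 14.9 and 13.6 in cage group 7, and 19.2, 21.3, 19.6, 20.0 and 22.5 in cage group 6. Vehicle tumors had 22.3 to 35.6. The groups did not overlap, although replicate 3 of cage group 7 and replicate 1 of cage group 6 were 19.1 and 19.2. The fold change was -0.39 ± 0.13 on the log2 scale (adjusted p = 0.428), with -0.82 ± 0.11 against vehicle in cage group 7 (adjusted p = 4e-05) and -0.43 ± 0.11 in cage group 6 (adjusted p = 0.674). AMOTL2 thus fell against vehicle in cage group 7 alone by the threshold, and the direct test of that difference did not pass.

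CCN2 (CTGF), the other secreted matrix protein widely used as a readout of YAP1 and TEAD, overlapped between the cage groups. Its FPKM were 4.72, 9.88, 2.96, 6.18 and 7.34 in cage group 7 and 9.00, 5.39, 5.81, 6.09 and 4.66 in cage group 6. The log2 fold change was -0.05 ± 0.20 (adjusted p = 0.973). With relative depth as a covariate it was -0.39 (adjusted p = 0.702), in the direction of CCN1. Both cage groups had 4 of 5 tumors below the lowest vehicle tumor (7.70 FPKM), with log2 fold changes against vehicle of -0.65 ± 0.17 (adjusted p = 0.0528) in cage group 7 and -0.60 ± 0.17 (adjusted p = 0.958) in cage group 6. ANKRD1, a nuclear ankyrin repeat protein and TEAD target, was low, at 0 to 1.22 FPKM in cage group 7 and 0.479 to 1.85 in cage group 6, with a log2 fold change of -0.29 ± 0.22. TGFB2, the ligand of the TGF-beta receptors, ranged from 0.333 to 4.01 FPKM in cage group 7 and from 0.382 to 5.70 in cage group 6 and had the widest SE of these genes, -0.43 ± 0.48, with -1.30 under relative depth as a covariate (adjusted p = 0.558).

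**Figure D1:**
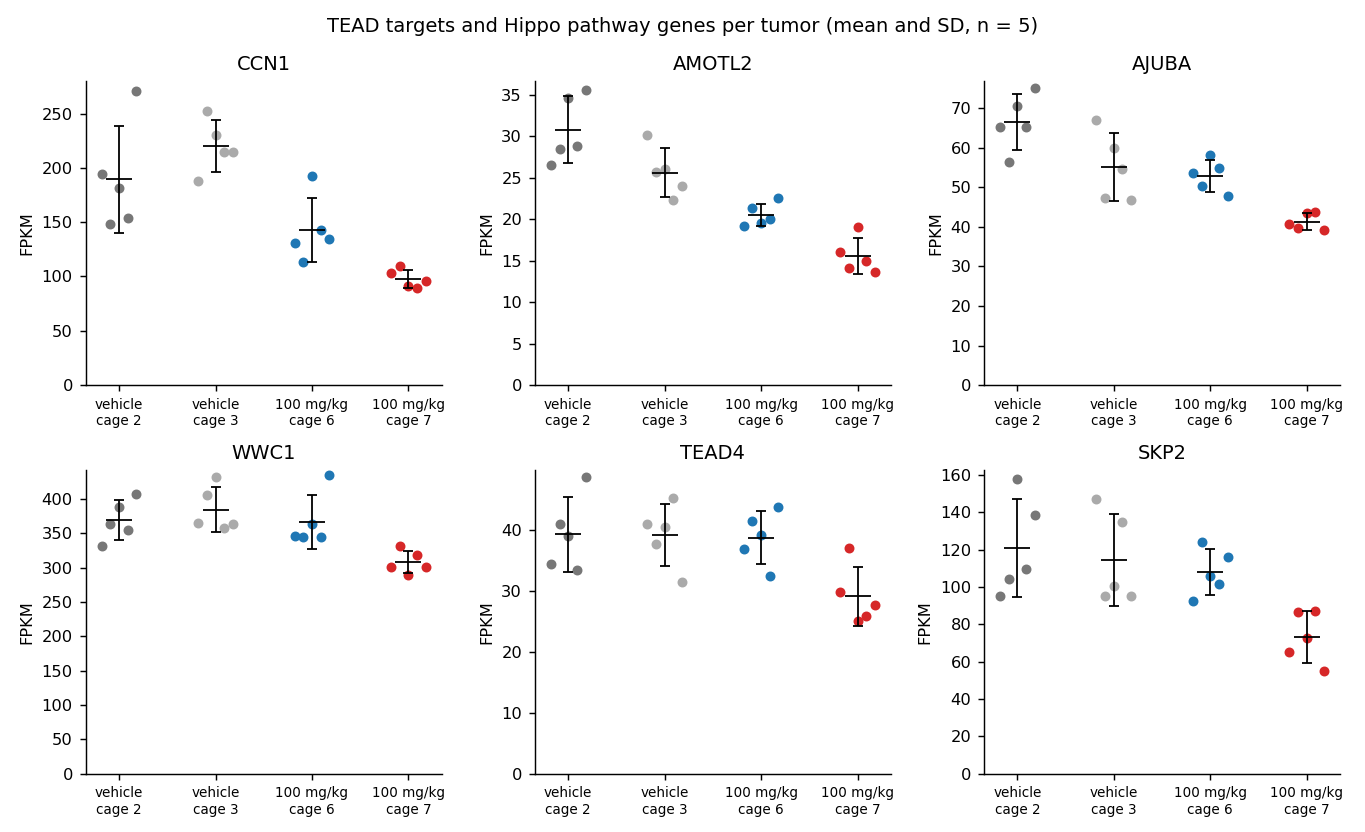
FPKM of TEAD target and Hippo pathway genes in each tumor of vehicle cage groups 2 and 3 and of 100 mg/kg cage groups 6 and 7, with the mean and SD of 5 tumors. CCN1 and AMOTL2 are lowest in cage group 7, where their 5 tumors lie below the 5 of cage group 6, while the points of TEAD4 overlap.

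Over the whole signature the shift was small. All 22 genes were tested, 0 were higher and 2 lower at an unadjusted p under 0.05, CCN1 and AMOTL2, which is 9.09% of the list against 3.96% of all genes. The median log2 fold change was -0.06 against -0.0025 over all genes, with 14 genes below 0 and 8 above, from -0.52 to 0.16. Between the vehicle cage groups 5 of the 22 were higher in cage group 3 and 0 lower (4.92% and 4.74% of all genes), with a median of 0.13. The signature median between cage groups 7 and 6 is thus no further from 0 than that between tumors without compound. Between cage groups 5 and 4 at 200 mg/kg 4 were lower and 0 higher (3.26% and 3.75% of all genes), with a median of -0.13. At 30 mg/kg 3 were lower and 0 higher (2.47% and 3.72% of all genes), with a median of 0.01.

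Among genes of the Hippo pathway itself, a larger share was lower in cage group 7. Of 26 genes, 23 were tested (NF2, VGLL1 and VGLL2 were below the filter), and 0 were higher and 5 lower at an unadjusted p under 0.05, or 21.7% against 3.96%. These were AMOTL2, AJUBA, WWC1, WWC2 and TEAD4, and for all but TEAD4 the cage groups did not overlap (4 of 23, or 17.4%, against 0.745% of all genes). AMOTL2 is also on the YAP/TAZ-TEAD target signature and was counted there. The median of the 23 was -0.06, so the other members lay near 0. Between cage groups 5 and 4 at 200 mg/kg 3 of the 23 were lower and 0 higher (3.26% and 3.75% of all genes). Between the vehicle cage groups 1 was lower and 0 higher (4.74% and 4.92% of all genes). At 30 mg/kg 0 were lower and 1 higher (2.47% and 3.72% of all genes). AJUBA, a LIM protein that binds and restrains the LATS kinases, was at 40.7, 39.7, 43.5, 43.8 and 39.1 FPKM in cage group 7 and at 53.6, 50.2, 58.3, 54.8 and 47.8 in cage group 6. The log2 fold change was -0.35 ± 0.10 (adjusted p = 0.366). Every AJUBA value of cage group 7 was also below the lowest vehicle tumor (46.7 FPKM), whereas 0 of 5 were in cage group 6.

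WWC1 (KIBRA) and WWC2, scaffold proteins that activate the LATS kinases upstream of YAP1, had the same pattern. WWC1 had 302, 332, 290, 318 and 301 FPKM in cage group 7 and 346, 345, 363, 344 and 435 in cage group 6, with a log2 fold change of -0.25 ± 0.07. WWC2 had 61.3, 58.3, 52.9, 55.7 and 45.6 against 73.3, 61.8, 62.5, 80.4 and 65.8, and a log2 fold change of -0.32 ± 0.10. Both had an adjusted p of 0.366, and both were in cage group 6 at the level of vehicle, with log2 fold changes of -0.04 ± 0.06 and -0.05 ± 0.08. In cage group 7 they fell against vehicle, by 0.29 (adjusted p = 0.0156) and 0.37 (adjusted p = 0.019) on the log2 scale. For WWC2, relative depth as a covariate gave -0.23 (adjusted p = 0.63) between the cage groups.

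Of the TEAD factors and their co-activators, TEAD4 had the lowest value. TEAD4 was at 29.8, 37.2, 25.2, 25.9 and 27.7 FPKM in cage group 7 and at 36.9, 41.6, 39.3, 32.5 and 43.9 in cage group 6, so replicate 2 of cage group 7 lay inside the range of cage group 6. The log2 fold change was -0.41 ± 0.13 (adjusted p = 0.38), and -0.64 with relative depth as a covariate (adjusted p = 0.212). TEAD1 was at 116 to 135 against 114 to 165 FPKM (-0.10 ± 0.09), YAP1 at 69.9 to 94.0 against 65.0 to 86.8 (0.15 ± 0.08) and WWTR1 at 7.32 to 26.8 against 8.99 to 15.9 (0.35 ± 0.21). The values of these 3 genes overlap, and with relative depth as a covariate the fold changes were -0.05 for TEAD1, 0.01 for YAP1 and 0.23 for WWTR1. VGLL3, a TEAD cofactor that competes with YAP1, was at 94.7 to 134 against 116 to 144 FPKM, a log2 fold change of -0.20 ± 0.10 (-0.11 with the same covariate), and fell against vehicle in cage group 7 (-0.43 ± 0.08, adjusted p = 0.00473). Beside AMOTL2, AJUBA, WWC1 and WWC2 it was the fifth of 23 pathway genes that fell against vehicle in cage group 7, where 0.633% of all genes did, and 0 passed in cage group 6.

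The study scored TEAD activity by deR, the mean fractional rank of positive effectors minus that of negative effectors among the effectors of a library. The effectors are genes whose expression went up or down with YAP1 and TEAD activity in other public datasets, 249 positive and 233 negative, so they were not chosen on these tumors. The score was 0.176, 0.201, 0.175, 0.187 and 0.193 in cage group 7 and 0.197, 0.206, 0.211, 0.209 and 0.212 in cage group 6. Of cage group 7, 4 of 5 tumors were below all of cage group 6, and replicate 2, the shallowest library, lay inside the range. The means were 0.186 ± 0.0114 and 0.207 ± 0.00592 (SD, n = 5 each), a difference of -0.0206 (two-sided exact permutation test, p = 0.0159, smallest possible 0.00794). Vehicle tumors had scores of 0.189 to 0.238 with a median of 0.213. That range holds all 5 tumors of cage group 6 and 2 of cage group 7. The score was tested between cage groups 7 and 6 only. In the 200 mg/kg pair it was 0.170 to 0.207 in cage group 5 and 0.202 to 0.233 in cage group 4. In the 30 mg/kg pair it was 0.186 to 0.227 in cage group 9 and 0.205 to 0.219 in cage group 8. Vehicle cage groups 3 and 2 had means of 0.217 and 0.213.

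**Figure D2:**
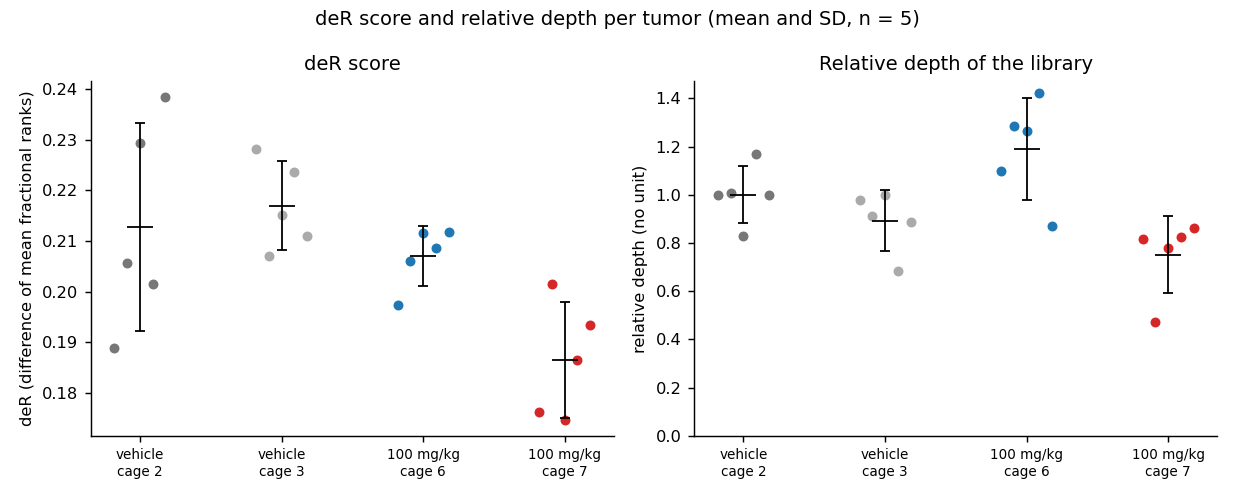
The deR score (difference of mean fractional ranks, no unit, axis not starting at 0) and the relative depth of the library for each tumor of vehicle cage groups 2 and 3 and 100 mg/kg cage groups 6 and 7, with mean and SD of 5 tumors. Cage group 7 has the lowest mean on both, with a deR of 0.175 to 0.201 and a relative depth of 0.471 to 0.862.

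Of 249 positive effectors 236 were tested, and 24 were lower and 1 higher in cage group 7 at an unadjusted p under 0.05 (10.2% lower, against 3.96% of all genes). CCN1, WWC1, WWC2 and TEAD4, counted above in the signature or the Hippo list, are among these 24. The counts of the lists are thus not independent. Of 233 negative effectors 188 were tested, and 14 were higher and 1 lower (7.45% higher, against 3.34%). The medians were -0.07 and 0.08, with 163 of 236 positive effectors below 0 and 126 of 188 negative effectors above it. The other pairs of cage groups with the same treatment also held such genes. Between vehicle cage groups 3 and 2, 10 positive effectors were lower and 17 higher (4.74% and 4.92% of all genes). There, 24 negative effectors were higher and 12 lower. At 200 mg/kg 21 positive effectors were lower and 2 higher in cage group 5 (3.26% and 3.75% of all genes), with 5 negative effectors higher and 5 lower. At 30 mg/kg 6 positive effectors were lower and 3 higher (2.47% and 3.72% of all genes), and 13 negative effectors were higher and 7 lower. Over the whole lists, the summed FPKM of the positive effectors was 16973 to 17946 in cage group 7 and 18106 to 19057 in cage group 6. That of the negative effectors was 5039 to 5427 and 4749 to 5014, so neither sum overlapped. The 10 vehicle tumors spanned 17800 to 20106 for the positive and 4159 to 5423 for the negative effectors. A sum of FPKM is carried mostly by the highest genes. Against vehicle, 10 of 236 positive effectors fell (0.633% of all genes did) and 2 of 188 negative effectors rose (0.44% did) in cage group 7, and 0 did in cage group 6. Cage group 7 also had the shallower libraries, whose part in these counts was not tested.

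SKP2, the part of an SCF ubiquitin ligase that marks the cell cycle inhibitor p27 for degradation, is a positive effector at chr5:36151989-36184319. Its FPKM were 65.3, 86.6, 72.5, 87.2 and 54.8 in cage group 7 and 92.4, 124, 106, 102 and 116 in cage group 6. The groups did not overlap, and the log2 fold change was -0.57 ± 0.13 (adjusted p = 0.106). Against vehicle SKP2 fell in cage group 7 (-0.67 ± 0.11, adjusted p = 0.000835) and was at -0.10 ± 0.11 in cage group 6. Between cage groups 5 and 4 at 200 mg/kg the fold change of SKP2 was -0.55 ± 0.13 (adjusted p = 0.29), and it was -0.08 between the vehicle and -0.00 between the 30 mg/kg cage groups.

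EPHA2, a receptor tyrosine kinase for ephrins, was at 76.5 to 91.3 FPKM in cage group 7 and 96.1 to 107 in cage group 6 (-0.29 ± 0.09, adjusted p = 0.366). THBS1, the matrix protein thrombospondin 1, was at 16.0 to 29.9 against 30.3 to 46.4 FPKM (-0.61 ± 0.19, adjusted p = 0.368). Neither gene overlapped between the cage groups. Of the negative effectors, CXXC5, a zinc finger protein, was at 44.9 to 56.3 against 29.3 to 44.6 FPKM (0.42 ± 0.14, adjusted p = 0.426). HBP1, a transcriptional repressor of cell cycle genes, was at 8.64 to 15.3 against 3.84 to 10.6 FPKM (0.65 ± 0.23, adjusted p = 0.49), with an overlap.

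Chaperones held the lowest p of any lower gene. HSPA8 (Hsc70), the constitutive cytosolic chaperone that folds new proteins and uncoats clathrin, lies at chr11:123057489-123062669. It had 174, 235, 184, 185 and 224 FPKM in cage group 7 and 247, 257, 263, 294 and 327 in cage group 6, against 209 to 311 in vehicle tumors. The groups did not overlap, at means of 200 ± 27.1 and 278 ± 32.5 (SD, n = 5 each). The log2 fold change was -0.47 ± 0.09 (adjusted p = 0.0699). Against vehicle HSPA8 fell in cage group 7 (-0.32 ± 0.08, adjusted p = 0.0423) and was at 0.16 ± 0.08 in cage group 6 (adjusted p = 0.999).

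The partners of HSPA8 named here were lower as well, each short of the threshold. DNAJA1, its J-domain co-chaperone, was at 30.0, 52.7, 32.5, 38.9 and 48.6 FPKM against 50.3, 53.7, 55.3, 53.1 and 57.8 (-0.44 ± 0.10, adjusted p = 0.106), and 4 of 5 tumors of cage group 7 were below all of cage group 6. STIP1 (HOP), which hands clients from Hsp70 to Hsp90, was at 69.9 to 84.3 against 92.5 to 99.5 FPKM, with no overlap (-0.36 ± 0.08, adjusted p = 0.106). STIP1 is not on the heat shock list and was chosen after its values were seen. FKBP4, an immunophilin of the Hsp90 complex, was at 38.5 to 49.1 against 52.4 to 57.6 FPKM (-0.30 ± 0.09, adjusted p = 0.38, and -0.19 with relative depth as a covariate). Of the 14 tested genes of the heat shock list, 5 were lower and 0 higher at an unadjusted p under 0.05 (35.7% against 3.96%), namely HSPA8, DNAJA1, FKBP4, HSPH1 (-0.36 ± 0.14) and HSP90AB1 (-0.12 ± 0.05), and 12 were below 0 with a median of -0.15. HSPA1A and HSPA1B, the inducible Hsp70 genes, were below the filter. Between the vehicle cage groups 3 of the 14 were lower and 0 higher (4.74% and 4.92% of all genes), with a median of -0.04.

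In the endoplasmic reticulum, HERPUD1, which takes part in the degradation of misfolded proteins there, was at 205 to 247 FPKM in cage group 7 and 260 to 299 in cage group 6 (-0.33 ± 0.11, adjusted p = 0.426), without overlap. HSPA5 (BiP), the main Hsp70 of that compartment, was at 170 to 208 against 198 to 263 FPKM (-0.27 ± 0.10). These 2 were the lower genes of the 22 on the list of the integrated stress and unfolded protein response (9.09%, against 3.96% of all genes), 0 were higher, and the median was -0.09. For both, the 5 tumors of cage group 7 lay inside the range of the vehicle tumors.

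FNIP1 had the smallest p of all genes. It binds folliculin (FLCN), and the complex acts at the lysosome on the Rag GTPases, among them RRAGA, which bring mTORC1 there. FNIP1, FLCN and RRAGA were chosen after their values were seen. FNIP1, at chr5:131641714-131797017, had 113, 99.6, 95.7, 98.7 and 109 FPKM in cage group 7 and 82.5, 74.4, 74.8, 74.5 and 84.1 in cage group 6. All values of cage group 7 were above those of cage group 6, a log2 fold change of 0.40 ± 0.08 (adjusted p = 0.0635). FLCN had 38.9, 29.7, 37.4, 33.8 and 30.7 FPKM against 24.3, 21.1, 22.8, 22.9 and 21.2 (0.57 ± 0.13, adjusted p = 0.106), also without overlap. RRAGA had 48.8, 41.6, 38.5, 38.9 and 39.5 against 32.7, 26.4, 30.7, 30.7 and 36.5 (0.39 ± 0.13, adjusted p = 0.444, and 0.27 with relative depth as a covariate).

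The vehicle tumors held a difference of like size in these genes. FNIP1 was at 62.4 to 74.9 FPKM in vehicle cage group 2 and at 93.1 to 100 in vehicle cage group 3, and rose by 0.46 ± 0.08 on the log2 scale between them (adjusted p = 0.00439). Vehicle cage group 3 was thus in the range of cage group 7, and vehicle cage group 2 was close to cage group 6. FLCN was at 0.40 ± 0.13 (adjusted p = 0.24) and RRAGA at 0.46 ± 0.13 (adjusted p = 0.159) between the vehicle cage groups. Between cage groups 5 and 4 at 200 mg/kg the log2 fold changes of FNIP1, FLCN and RRAGA were 0.25, 0.36 and 0.08, and between cage groups 9 and 8 at 30 mg/kg they were 0.10, 0.36 and -0.15, none past the threshold. A difference in FNIP1 between cage groups was thus also present in mice that had no K-975.

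**Figure D3:**
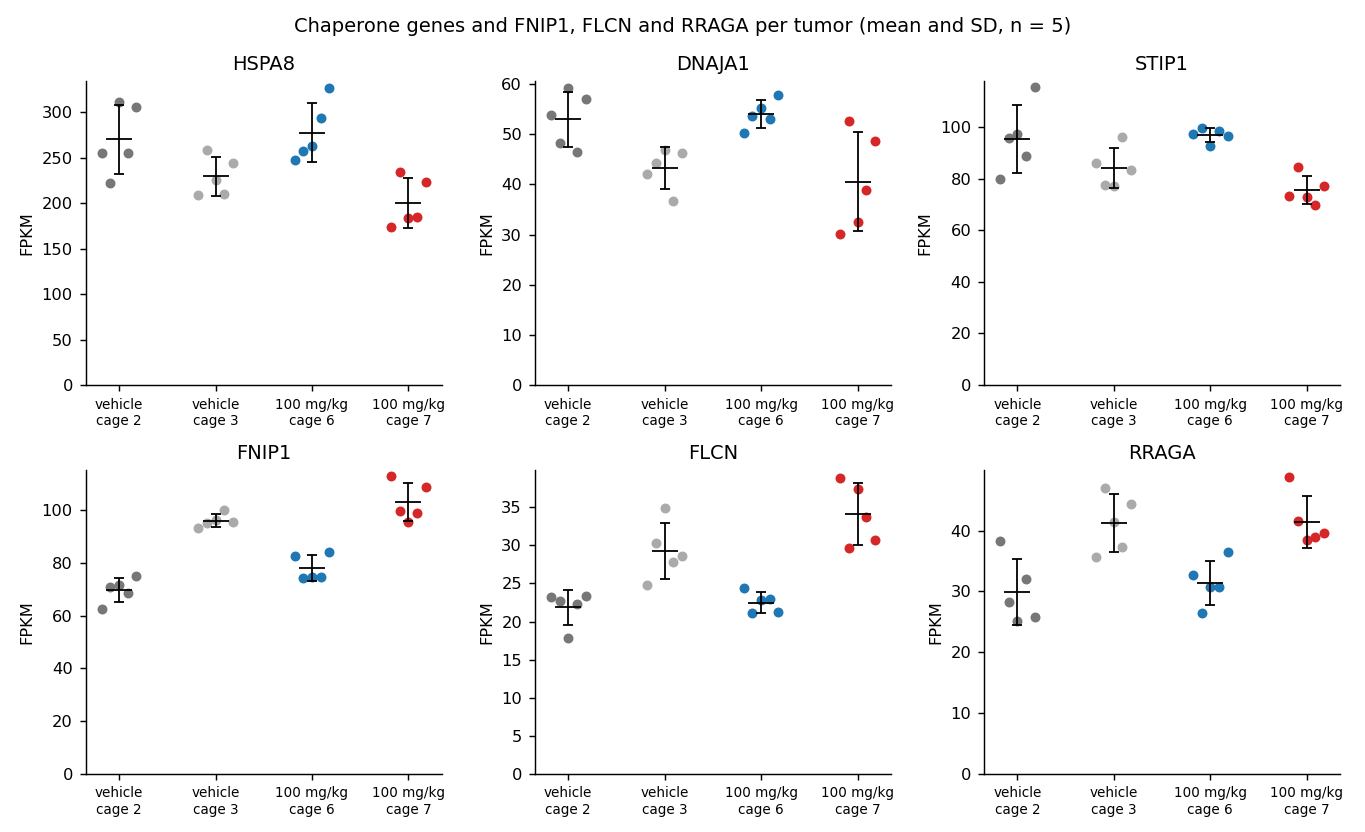
FPKM of HSPA8, DNAJA1, STIP1, FNIP1, FLCN and RRAGA in each tumor of vehicle cage groups 2 and 3 and 100 mg/kg cage groups 6 and 7, with mean and SD of 5 tumors and axes from 0. FNIP1 is at 93.1 to 100 FPKM in vehicle cage group 3 and 95.7 to 113 in cage group 7, and at most 84.1 in cage groups 2 and 6.

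The labels do not tell which vehicle cage group belongs to which 100 mg/kg cage group, so the difference between the 100 mg/kg cage groups was set against that between the vehicle cage groups in both orders. With cage group 7 matched to vehicle cage group 3, 0 genes passed (893 at an unadjusted p under 0.05, or 7.15%). With cage group 7 matched to vehicle cage group 2, against that numbering, 24 passed (0.192%), 14 higher (0.112%) and 10 lower (0.0801%). Among them were FNIP1 (0.86 ± 0.11, adjusted p = 8.3e-06), FLCN (0.98 ± 0.18), RRAGA (0.85 ± 0.19), HSPA8 (-0.70 ± 0.13), DNAJA1 (-0.72 ± 0.14) and STIP1 (-0.53 ± 0.11). In that order the difference of the vehicle cage groups is added to that of the 100 mg/kg cage groups. By the rule that a gene is called only where both orders pass, 0 genes were called.

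Other genes with the smallest p were of varied function. CIAO3, which takes part in the assembly of cytosolic iron-sulfur proteins, was at 18.1 to 20.6 FPKM in cage group 7 and at 6.13 to 11.99 in cage group 6 (0.92 ± 0.21). FKBP7, a prolyl isomerase of the endoplasmic reticulum, had the largest fold change of them and was low, at 2.17 to 4.66 against 0 to 1.07 FPKM (1.61 ± 0.37). SPHK2, a sphingosine kinase, was at 7.31 to 11.98 against 13.3 to 18.6 FPKM (-0.76 ± 0.18). SRSF7, a splicing factor, was at 28.1 to 34.5 against 34.5 to 44.7 FPKM (-0.35 ± 0.08). SH2D4A and SPRYD7 were at -0.53 ± 0.12 and -0.55 ± 0.13, and each of these 6 genes had an adjusted p of 0.106. BARX2, a homeobox factor, was at 8.97 to 12.7 against 2.03 to 5.95 FPKM (1.19 ± 0.30, adjusted p = 0.158), and rose against vehicle in cage group 7 (1.37 ± 0.26, adjusted p = 0.00298). These 7 genes were chosen after their values were seen.

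Of 24 tested genes of DNA replication and the G1/S step of the cell cycle, 21 were below 0, with a median of -0.11, and 5 were lower and 0 higher at an unadjusted p under 0.05 (20.8% against 3.96%). MCM3, a subunit of the replicative helicase, was at 11.8 to 19.04 FPKM against 15.2 to 22.9 (-0.36 ± 0.13, and -0.24 with relative depth as a covariate). The others were MCM10, CCND1, GINS2 and RRM2, at -0.46, -0.20, -0.50 and -0.42. All 5 overlapped between the cage groups. CCND1 (cyclin D1) fell against vehicle in cage group 7 (-0.37 ± 0.08, adjusted p = 0.0119). The 24 genes of G2/M and mitosis had 0 lower and 0 higher and a median of 0.01.

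Among 22 mesothelial and epithelial-mesenchymal markers, 4 were higher (18.2%, against 3.34% of all genes) and 1 lower (4.55%, against 3.96%), with a median of -0.01. At 30 mg/kg 4 of the 22 were also higher and 0 lower (3.72% and 2.47% of all genes). Between the vehicle cage groups 2 were higher and 4 lower (4.92% and 4.74%), and at 200 mg/kg 1 was higher and 0 lower (3.75% and 3.26%). VIM (vimentin), an intermediate filament protein, was at 731 to 802 FPKM against 629 to 710 (0.18 ± 0.06, adjusted p = 0.483). SNAI2 (Slug), a repressor of E-cadherin, was at 3.52 to 6.15 against 1.92 to 3.32 FPKM (0.55 ± 0.22, adjusted p = 0.569). Neither overlapped. ZEB1 was at 0.42 ± 0.17, and at 0.14 with relative depth as a covariate, and FN1 (fibronectin) was at 0.66 ± 0.32, and at 0.29 with that covariate, while UPK3B, a uroplakin of mesothelial cells, was at -0.66 ± 0.31. VIM, SNAI2 and ZEB1 rose against vehicle in cage group 7 (adjusted p = 0.0279, 0.0487 and 0.0451), and none of them passed in cage group 6.

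Of 17 tested p53 targets and genes of apoptosis, 2 were higher (11.8%, against 3.34% of all genes) and 1 lower (5.88%, against 3.96%), with a median of 0.00. At 200 mg/kg 5 of the 17 were higher and 1 lower (3.75% and 3.26% of all genes). Between the vehicle cage groups 1 was higher and 0 lower (4.92% and 4.74%), and at 30 mg/kg 0 were higher or lower. BBC3 (PUMA), an activator of apoptosis, was at 9.80, 10.7, 6.79, 7.61 and 8.01 FPKM in cage group 7 and at 5.78, 4.12, 5.27, 5.31 and 5.95 in cage group 6 (0.60 ± 0.15, adjusted p = 0.188), and rose against vehicle in cage group 7 (0.56 ± 0.13, adjusted p = 0.0276). TP53INP1 was at 0.54 ± 0.20 and ZMAT3 at -0.44 ± 0.19. MDM2, a p53 target that limits p53, was at 0.19 ± 0.11, and at 0.08 with relative depth as a covariate. The sterol synthesis list had 3 of 21 lower (14.3%, against 3.96%) and 0 higher, HMGCS1, IDI1 and INSIG1, at -0.41, -0.27 and -0.33, with a median of -0.08. Fatty acid synthesis had ACACA lower and PNPLA3 higher of 12 (8.33% each). Between the vehicle cage groups 5 of the 21 sterol genes were lower and 0 higher, with a median of -0.15. There, 3 of the 12 fatty acid genes were lower and 0 higher (4.74% and 4.92% of all genes). At 30 mg/kg 4 sterol and 3 fatty acid genes were higher and 0 lower (3.72% and 2.47% of all genes).

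The hypoxia list set the pairs of cage groups apart. Between cage groups 7 and 6, 0 of 21 tested genes were higher or lower, with a median of 0.19, whereas between vehicle cage groups 3 and 2 there were 19 higher and 0 lower, with a median of 0.85, where 4.92% of all genes were higher and 4.74% lower. HK2, a hexokinase of glycolysis, was at 17.4 to 65.6 FPKM in cage group 7 and at 7.03 to 34.6 in cage group 6 (0.91 ± 0.50, and 0.47 with relative depth as a covariate), and at 26.9 to 62.5 in vehicle cage group 3 and 4.21 to 10.2 in vehicle cage group 2 (2.26 ± 0.50, adjusted p = 0.0574). The NF-kB list likewise had 0 of 25 genes between cage groups 7 and 6 and 10 higher of 25 between the vehicle cage groups (against the same 4.92%). In these lists the vehicle cage groups, without compound, were further apart by count than the 100 mg/kg cage groups.

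The other lists held few genes at an unadjusted p under 0.05. Over all genes 3.34% were higher and 3.96% lower. The MAPK list had EPHA2 and CCND1 lower of 15 (13.3%). The NRF2 list had OSGIN1 higher and TXNRD1 lower of 16 (6.25% each), at 0.46 and -0.40, and at 0.29 and -0.19 with relative depth as a covariate. There was 1 higher gene and 0 lower in the lists of the circadian clock (TEF, of 18), TGF-beta (SMAD7, of 23), actin and SRF (FILIP1L, of 20), and interferon (IFI44, of 27). There were 0 in either direction in those of the glucocorticoid response (of 10), immediate-early genes and AP-1 (of 23), EGFR and its ligands (of 9), metallothioneins (of 4), the xenobiotic response (of 6), IGF-binding proteins (of 6) and histones (of 12). The median of each of these lists lay between -0.19 and 0.21. Some of them held more genes between the vehicle cage groups. There, 8 of 27 interferon, 5 of 23 immediate-early and 4 of 10 glucocorticoid genes were higher and 0 lower (4.92% and 4.74% of all genes). The 13 mitochondrially encoded transcripts had 3 lower (23.1%, against 3.96%) and 0 higher and a median of -0.55. Between the vehicle cage groups they had a median of -0.68 with 1 lower, where 4.74% of all genes were lower. Of the 13, MT-ATP8 was listed at 0 in 3 of the 5 libraries of cage group 7.

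Markers of other cells that a tumor can hold had summed levels that overlapped between the cage groups. The summed FPKM of 13 blood and immune markers was 80.7 to 179 in cage group 7 and 68.6 to 166 in cage group 6, that of 8 fibroblast markers 798 to 1161 and 682 to 931, and that of 7 endothelial markers 27.2 to 93.8 and 61.2 to 131. Adipocyte and skeletal muscle markers summed to at most 0.495 and 2.15 FPKM in any library of the 10. Keratinocyte markers summed to 746 to 882 and 726 to 992 FPKM, nearly all of it KRT5, which mesothelial cells also express. Of the tested markers of these lists, KRT10 alone was at an unadjusted p under 0.05, at 0.83 ± 0.33, and at 0.51 with relative depth as a covariate. PTPRC (CD45) was below the filter and not tested. It was at 8.24 FPKM in replicate 3 of cage group 7, a value of 1 library that does not describe the group. Reads were mapped to the human genome, and how reads from mouse cells were handled is not given in the sources used here. In bulk samples, fewer cells of a type and less RNA per cell cannot be told apart.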

How the data were processed

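RNA-seq was performed by the study on NCI-H226 xenograft tumors. Library preparation used KAPA RNA HyperPrep followed by HyperCap target enrichment, in which probes capture transcripts, and probes differ in efficiency between genes. STAR and GRCh38 are named in the submitters' processing notes, and the quantification tool is not given in the sources used here. The authors deposited FPKM values, 1 column per library. They hold no counts, so no count test and no counting interval was computed.

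The table had 20555 entries. For 266 gene IDs with several entries 1 was kept, which left 20257 IDs, and 32 blank cells were read as 0. Starts were raised by 1, after which 17562 of 20200 IDs had the start of GENCODE 29. Replicates were numbered within a cage group and pair no tumors, and nothing beyond the animal numbers of the labels describes their independence.

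Log2(FPKM + 1) of the 45 libraries of the 3 to 6 h study was modelled in limma (lmFit and eBayes, trend and robust both on), each cage group having its own coefficient. The 12487 genes tested had 1 FPKM or more in 5 or more libraries. Adjusted p-values are Benjamini-Hochberg values over these genes, and 0.05 was the threshold. Fold changes use that log2 scale, which understates changes of low genes. The cage groups were also set against the mean of vehicle cage groups 2 and 3. The deR score and the library measures were compared by two-sided exact permutation tests. R 4.3.3, limma 3.58.1 and Python 3.11.15 were used, and the fit was tested on simulated data.

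The members and gene lists were chosen with earlier results of these data known. Genes named were, by rule, the 15 highest and 15 lowest past the threshold (none), all members of the TEAD signature and Hippo lists, and up to 4 members of each other list with the smallest unadjusted p. Other genes were chosen after their values were seen. Alternatives were another pseudocount, filter, scaling, set of libraries and eBayes setting, relative depth as a covariate, summed entries, and leaving out each tumor.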

Additional observations from a re-analysis of the deposited data

Results flagged for a closer look

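Of 156 groups of 5 values checked for a tumor that stands apart by Dixon's criterion, 12 had one, and chance alone flags about 1 in 20. Replicate 2 of cage group 7 had a relative depth of 0.471, against 0.778 to 0.862 in its group. In cage group 7, replicate 3 was highest for CXXC5 (56.3 FPKM, others at most 46.8), HBP1 (15.3, others at most 9.62) and TEF (4.76, others at most 3.11), replicate 4 for ACACA (60.2, others at most 50.9), and replicate 5 for SPHK2 (11.98, others at most 8.59). In cage group 6, replicate 5 was highest for WWC1 (435 FPKM, others at most 363), THBS1 (46.4, others at most 33.8) and OSGIN1 (6.02, others at most 2.91), and replicate 1 for MT-ATP8 (123, others at most 36.2). INSIG1 was highest in replicate 2 of both cage groups, at 61.7 FPKM in cage group 7 (others at most 43.5) and 70.9 in cage group 6 (others at most 55.9).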

How the results depend on the processing

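Between cage groups 7 and 6, 0 genes passed with a pseudocount of 0.1, median-ratio scaling, only the 10 libraries, all 94 libraries, relative depth as a covariate, plain eBayes or summed entries. There were 2 without a filter (FNIP1 and PTGER1), 1 at a mean FPKM of at least 5 (FNIP1), 2 after quantile normalization (FNIP1 and HSPA8) and 5 with 91 libraries (FNIP1, HSPA8, DNAJA1, FLCN and CIAO3). Leaving out 1 tumor gave 0 to 3 genes: 3 without replicate 2 of cage group 7 (FNIP1, HSPA8 and DNAJA1), 3 without replicate 1 of cage group 6 (FNIP1, HSPA8 and SH2D4A) and 1 without replicate 4 of cage group 7 (GOLGA7). The cause of these changes was not tested. Between the vehicle cage groups the count was 42 with 91 libraries and 3 with relative depth as a covariate, and at 200 mg/kg it was 1 with that covariate. The contrasts with vehicle had alternatives chosen after seeing the data, as had leaving out tumors for the relative depth and the difference of differences. Cage group 7 against vehicle had 0 genes with all 94 libraries and 66 to 140 with 1 tumor left out, and cage group 6 had 1 with a pseudocount of 0.1, 1 with all 94 libraries and 0 to 1 with 1 tumor left out.

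The deR difference was -0.0137 with ranks among all genes (exact p = 0.0397), -0.0260 over effectors that pass the filter, and -0.0243 to -0.0176 with 1 tumor left out (exact p = 0.00794 to 0.0317), all on the same side of the threshold. Of 75 named genes, 7 passed the threshold in at least 1 of 21 alternatives and 2 changed sign in at least 1: CCN2 ranged from -0.22 to 0.15 with 1 tumor left out and was -0.39 under relative depth as a covariate, and IGFBP3 ranged from -0.086 to 0.37 and was -0.18. No paired analysis was possible because the replicate numbers were given in accession order and pair no tumors. Depth limits the low genes most, and cage group 7 had the shallower libraries.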
